A study of Rattus norvegicus with 3 samples.

Results

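The axon guidance ligands and receptors measured here were 57 genes, out of 14217 genes with a probe set on the arrays. They were chosen by symbol alone, as the semaphorins (17 genes), plexins (8), neuropilins (2), ephrins (5), Eph receptors (12), Slits (3), Robos (3), netrins (2) and the symbols that begin with Unc5 (5). Each was read from its brightest probe set among those annotated to exactly 1 gene symbol. A RefSeq gene table of the assembly GRCr8 lists 70 protein-coding symbols of the same form, and the others were not analysed here. Unc50, a Golgi protein, and Unc5cl, a cytoplasmic relative of the netrin receptors, share the first letters of the Unc5 symbols but are not netrin receptors. They are counted with the rest.

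RNA came from 3 tissues of wild-type male Sprague Dawley rats aged 9 weeks, with 1 array per tissue. The text describing the design calls the PCT animals mice at one point, whereas the labels of all 3 samples give rat, and PCT was treated as rat here. Peri-implant connective tissue (PICT) lay around a titanium alloy implant that had been placed at 5 weeks of age in the fresh socket of an upper first molar. Oral mucosa connective tissue (OMCT) lay where the same molar had been extracted at 5 weeks and no implant placed. Both were taken 4 weeks after surgery. Periodontal connective tissue (PCT) lay around an upper first molar that was still in place. The tissue was cut out by laser microdissection, and the sources used here do not give the number of animals per array.

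Axon guidance proteins were first described as cues that attract or repel growing nerve fibres, and most of them also steer vessels, epithelial sheets and immune cells. Semaphorins are ligands. The secreted class binds neuropilins, which signal through plexins, while most membrane-bound semaphorins bind plexins directly. Ephrins sit on the cell surface and signal in both directions with Eph receptor tyrosine kinases on the neighbouring cell. Slits signal through Robo receptors, and netrins act through Dcc, neogenin and the Unc5 receptors. In the oral mucosa and the periodontium these families are known from nerve supply, vessel growth, bone turnover and the layering of the epithelium.

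Values are given as scaled intensities, that is, deposited intensities multiplied so that the median probe set of every array was 48.1. Differences are on the scale log2(scaled intensity + 8.78) unless written as deposited, which understates the differences of dim genes. A gene was called higher or lower when it differed by at least 1 on this scale (2-fold) and the brighter array reached the array median. With 1 array per tissue there is no replicate error, no test was run, and the number of arrays limits the precision. Between probe sets of 1 gene the log2 difference had an SD of 0.49 for PICT minus PCT, 0.47 for PICT minus OMCT and 0.48 for OMCT minus PCT over all genes. Among the 24 guidance genes with several probe sets it was 0.64, 0.45 and 0.49 in the same order. That spread covers probes and not animals. Levels of different genes are not compared, because probe sets differ in brightness.

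The deposited median intensity was 56.5 in PICT, 57.4 in OMCT and 34.3 in PCT. As deposited, PCT was thus dimmer by 0.72 than PICT and by 0.74 than OMCT on the log2 scale, whereas the hybridisation controls of the array maker differed by only 0.19 and 0.26. The ratio of 3' to 5' signal for Hk1, which grows as RNA shortens, was 1.58 in PICT, 1.97 in OMCT and 2.80 in PCT. All 9 fibroblast markers measured exceeded the highest negative control of each array, and so did all 7 markers of basal epithelium. The summed scaled intensity of the basal epithelial markers was 18672 in PICT, 19227 in OMCT and 36428 in PCT, so the tissue was not connective tissue alone.

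**Figure D1:**
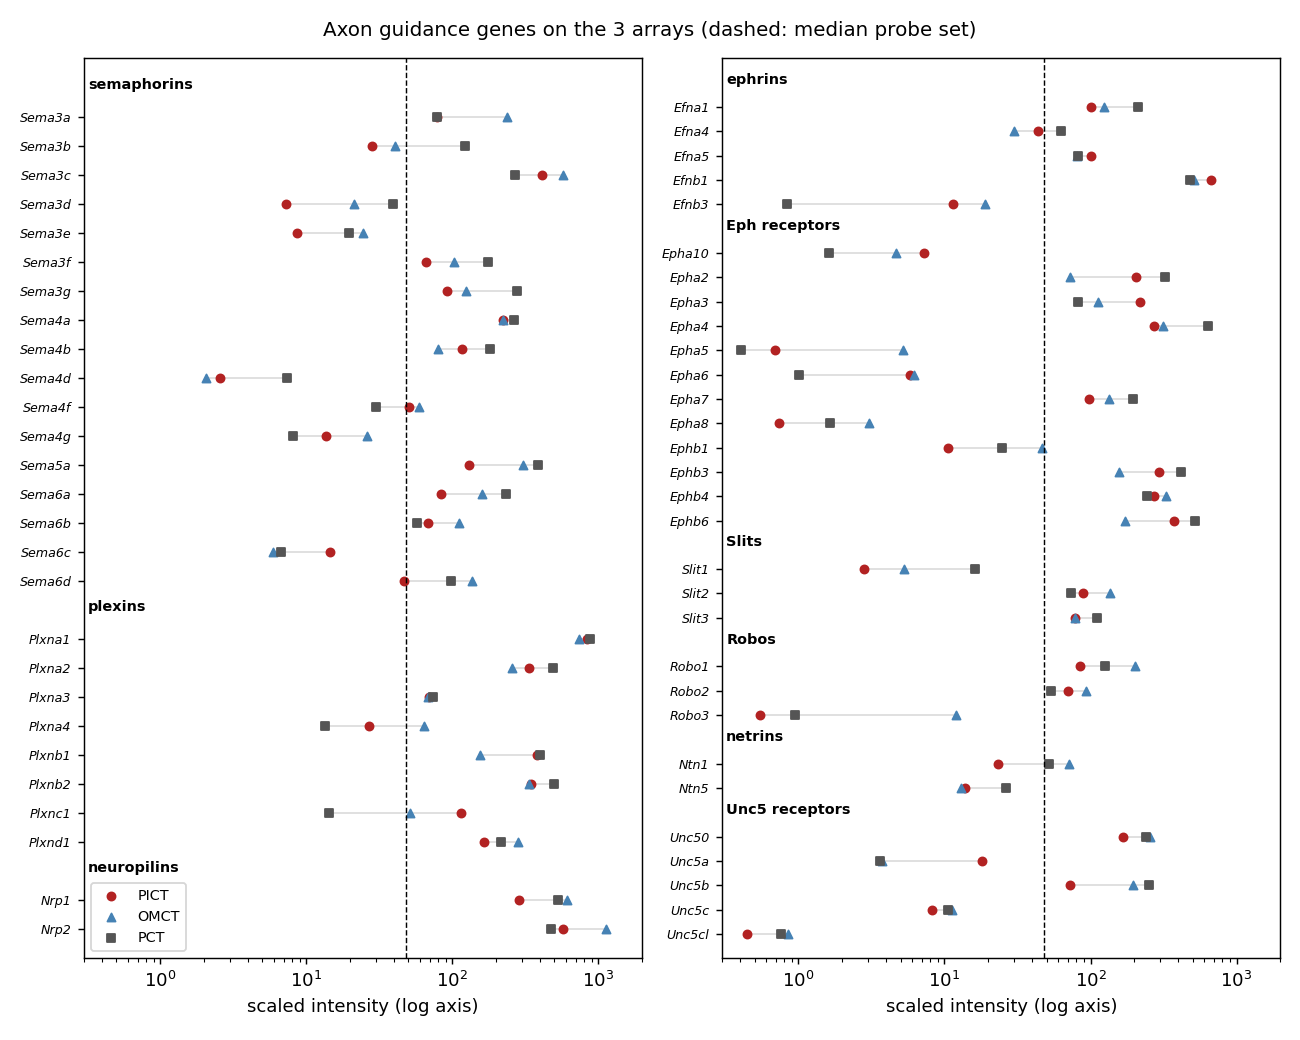
Scaled intensity (log axis) of each of the 57 genes on the PICT (circles), OMCT (triangles) and PCT (squares) arrays, by family. Of these genes, 17 lay left of the dashed line, the array median of 48.1, on every array.

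Of the 57 genes, 40 (70.2%) reached the array median on at least 1 array, as did 69.3% of all genes. On at least 1 array, 11 genes did not exceed the highest negative control, and Sema4d and Unc5cl did not exceed it on any. Over the 3 comparisons 23 genes were called at least once and 34 never. The same count over all genes is not given here, so only the shares per comparison below have a background. In none of the called differences did a compared array fail to exceed the negative control.

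Between PICT and PCT, 5 of the 10 called genes were semaphorins, and all 5 were lower around the implant. In all, 2 of the 57 genes were higher in PICT (3.51%) against 3.64% of all genes, and 8 were lower (14.0%) against 3.94% of all genes. The median difference was -0.37 for the guidance genes and -0.10 for all genes. The direction of that median depends on the scaling, since as deposited it was 0.18 for the guidance genes and 0.47 for all genes. As deposited the split of calls was 5 higher and 2 lower, against 14.1% and 0.9% of all genes. Both higher calls, Plxnc1 and Epha3, were kept without scaling, but of the 8 lower genes Sema3b and Unc5b alone were. With the mean over all probe sets of a gene in place of the brightest, 0 were higher and 2 were lower (3.51%), against 3.07% and 3.22% of all genes, so the share of lower genes was then close to that of all genes.

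Between PICT and OMCT, 4 guidance genes were higher in PICT (7.02%) against 4.04% of all genes, and 8 were lower (14.0%) against 4.38%. The median was -0.28, and -0.04 over all genes. These arrays had nearly the same deposited median, and as deposited the counts were again 4 and 8, against 3.97% and 4.65% of all genes. With a pseudocount at the median intensity, 2 were higher and 2 lower (3.51% each), against 2.24% and 2.39% of all genes. The higher genes were plexins and Eph receptors, and the lower ones were spread over 6 of the 9 families.

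Between OMCT and PCT, 5 guidance genes were higher in OMCT (8.77%) against 5.3% of all genes, and 8 were lower (14.0%) against 5.41%. The median was 0.01, and -0.05 over all genes, while as deposited it was 0.48 and 0.54 over all genes. As deposited, 15 were higher and 1 was lower, against 17.6% and 2.1% of all genes, so the number in each direction rests on the scaling. All 5 higher genes kept their call without it, and of the 8 lower genes Epha2 alone did. Of the 8 lower genes, 4 were Eph receptors. The 3 comparisons share arrays and are not independent of each other.

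**Figure D2:**
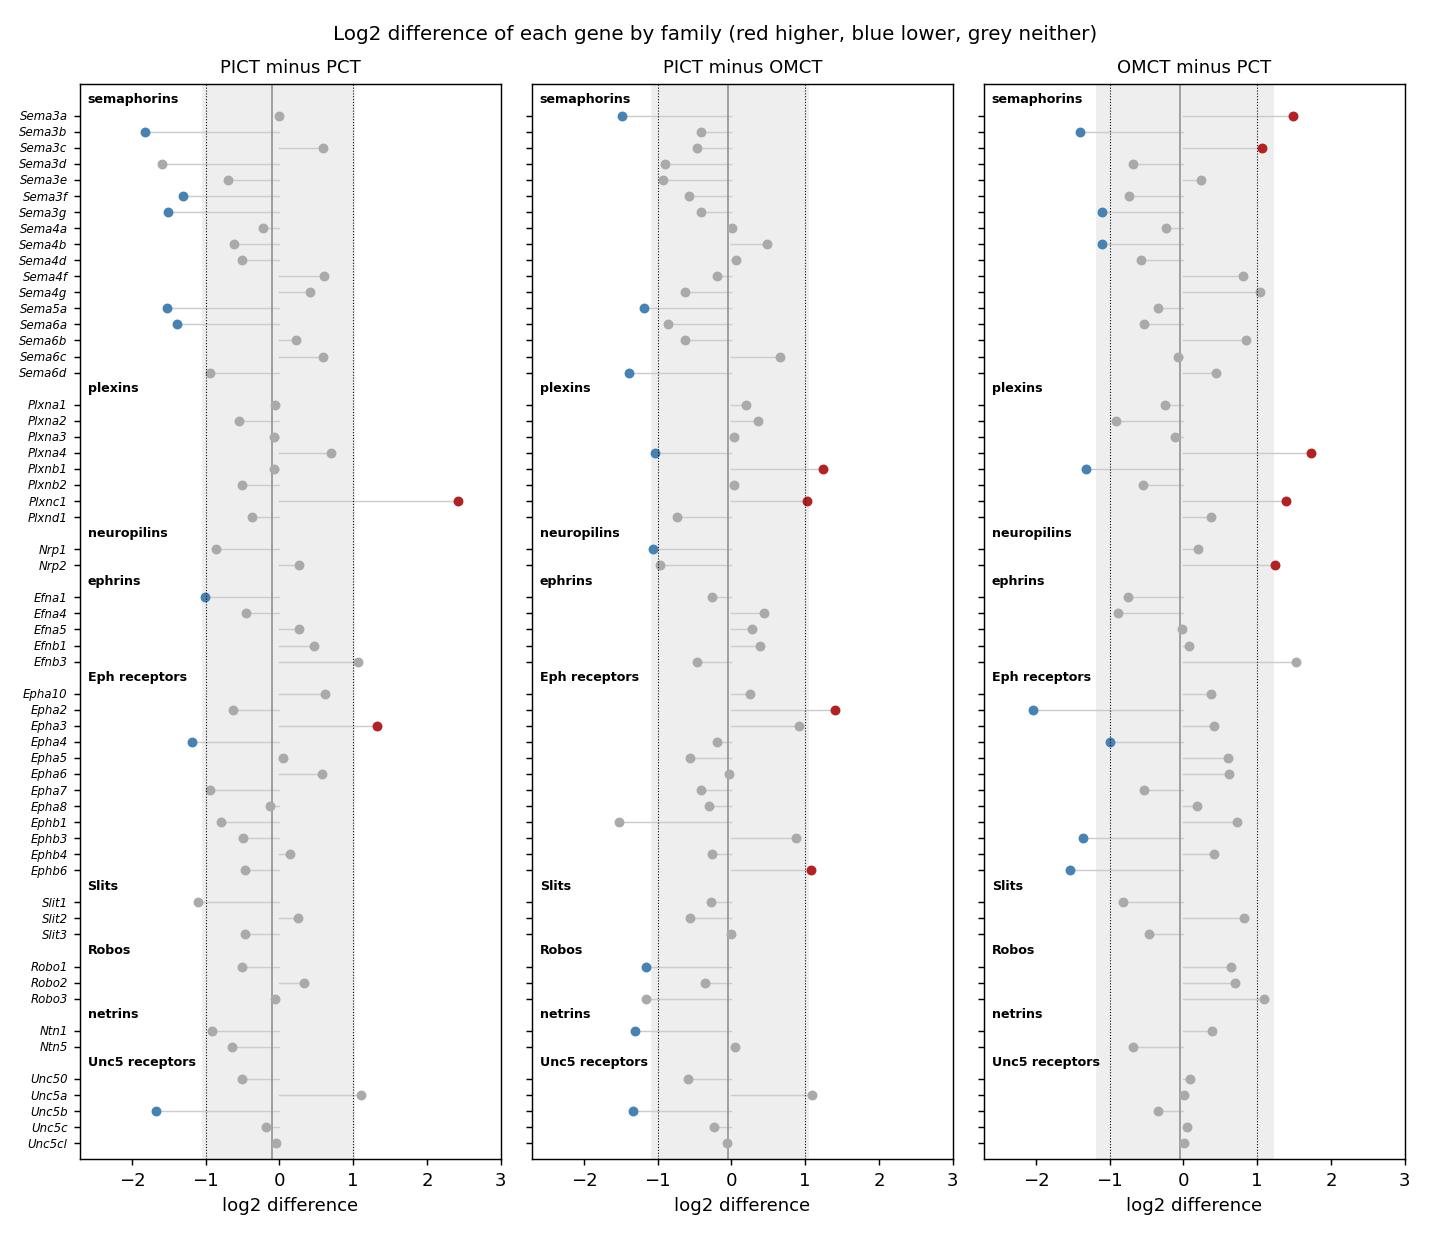
Log2 difference of each gene for PICT minus PCT, PICT minus OMCT and OMCT minus PCT, with called genes in red (higher) and blue (lower). The grey band spans the 5th to 95th percentile of all genes (-1.03 to 1.01, -1.07 to 1.04 and -1.17 to 1.21), the grey line is their median and dotted lines mark 2-fold. The called semaphorins lie left of 0 in PICT minus PCT, and Plxnc1 at 2.42 lies farthest right.

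Of the secreted semaphorins, 3 that signal through neuropilins were lower around the implant than around the tooth. Sema3b had a scaled intensity of 28.3 in PICT, 40.4 in OMCT and 121.7 in PCT. Both surgical sites were therefore dim beside the tooth, with differences of -1.82 for PICT minus PCT and -1.41 for OMCT minus PCT. Sema3g, a ligand of neuropilin 2 known from blood vessels, had 91.9 in PICT, 124.7 in OMCT and 277 in PCT. It was called lower in both surgical sites, at -1.51 and -1.10. Sema3f, which repels axons and endothelial cells through neuropilin 2, had 65.7 in PICT, 102 in OMCT and 176 in PCT, and only the PICT difference of -1.31 was called. The probe sets did not all show these differences. A second, dim Sema3g probe set differed by 0.10 between PICT and PCT, and the second Sema3f probe set by -0.14, while Sema3b has 1 probe set.

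Sema3a and Sema3c were instead brightest in the socket that healed without an implant, though Sema3c was called only against PCT. Sema3a, the prototype axon repellent, which in mouse bone also restrains osteoclasts, had 78.1 in PICT, 235 in OMCT and 78.3 in PCT. OMCT stood apart from both others, while PICT and PCT lay together after scaling at a difference of -0.00 (0.64 as deposited). The differences were -1.49 for PICT minus OMCT and 1.49 for OMCT minus PCT. Sema3c, a ligand of both neuropilins that guides cardiac neural crest cells, had 411 in PICT, 571 in OMCT and 269 in PCT, with 1.06 for OMCT minus PCT. Its PICT minus OMCT difference of -0.47 was not called. Sema3a and Sema3c each have 1 probe set. Sema3d and Sema3e, of which Sema3e binds plexin D1 directly, stayed below the median on every array.

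Among membrane-bound semaphorins, Sema5a, Sema6a and Sema6d were lowest in PICT on the probe sets used. Sema5a, which carries thrombospondin repeats, had 129.6 in PICT, 304 in OMCT and 387 in PCT. PICT was the lowest array by -1.52 against PCT and -1.18 against OMCT. Of its 4 probe sets, 3 were lower in PICT than in PCT and 1 was higher by 0.42, whereas all 4 were lower in PICT than in OMCT. Sema6a, a ligand of A-type plexins, had 83.9 in PICT, 159 in OMCT and 234 in PCT, a PICT minus PCT difference of -1.39. All 5 of its probe sets were lower in PICT than in PCT, by -0.37 to -1.39. The Sema6a probe set with the smallest of these differences had 108 in PICT, 81.7 in OMCT and 142 in PCT, and so was lowest in OMCT. Sema6d, another ligand of A-type plexins, had 46.7 in PICT, 136 in OMCT and 97.9 in PCT, with -1.39 for PICT minus OMCT. Sema4b had 115.8 in PICT, 80.2 in OMCT and 182 in PCT, and was called only in OMCT minus PCT, at -1.10. As a family, the 17 semaphorins had no called gene higher in PICT in either comparison. Against PCT 5 were lower and against OMCT 3, where 3.94% and 4.38% of all genes were lower. Of those 5, Sema3b alone kept its call as deposited, and it alone with the mean over probe sets. As deposited, Sema3c (1.29) and Sema4f (1.18) instead passed 2-fold upward in PICT minus PCT.

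The neuropilins, the ligand-binding receptors of the secreted semaphorins, were both brightest in OMCT. Nrp1, which also binds VEGF on endothelium, had 288 in PICT, 608 in OMCT and 529 in PCT. PICT was the low array, called against OMCT at -1.06 and not against PCT at -0.86. Its second probe set had 276 in PICT, 309 in OMCT and 203 in PCT, and so did not show PICT as lowest. Nrp2, a neuropilin of lymphatic endothelium, had 571 in PICT, 1129.8 in OMCT and 474 in PCT. OMCT was the high array, called against PCT at 1.24, while PICT minus OMCT was -0.97. Its second, dimmer probe set differed by 0.22 between OMCT and PCT and by -1.62 between PICT and OMCT.

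Lymphatic and fibroblast markers were high on the same array as Nrp2, Sema3a and Sema3c. All 5 lymphatic markers exceeded the negative control on every array, and for 4 of them OMCT was called above PCT and PICT below OMCT. The summed scaled intensity of all 5 was 1085 in PICT, 2760 in OMCT and 1027 in PCT. Pdpn, the marker not called, alone made up 843 of the sum in PICT, 1212 in OMCT and 751 in PCT. The fibroblast list had 5 of 9 genes higher in OMCT than in PCT and 4 of 9 lower in PICT than in OMCT. Its summed intensity was 23703 in PICT, 36170 in OMCT and 29944 in PCT. In such mixed tissue fewer cells of a type and less RNA per cell cannot be told apart. What part these cell types had in the differences was not tested.

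Plexins, the signalling receptors of the semaphorins, included the largest difference in PICT minus PCT. Plxnc1, the receptor of the membrane-anchored semaphorin 7A and known from neutrophils and other leukocytes, had 114 in PICT, 51.6 in OMCT and 14.2 in PCT. The order PICT, OMCT, PCT had called steps throughout, of 2.42 for PICT minus PCT (5.34-fold), 1.02 for PICT minus OMCT and 1.40 for OMCT minus PCT. Its second probe set was dimmer, with 16.1 in PICT, 16.6 in OMCT and 3.25 in PCT. The PCT value was not above the negative control. That probe set was 1.05 higher in PICT and 1.08 higher in OMCT than in PCT, but did not separate PICT from OMCT (-0.03). The PICT minus OMCT call of Plxnc1 lay close to the threshold and was kept in 5 of the 7 other processing settings. That difference was 0.70 with a pseudocount at the median intensity and 0.49 with the mean over probe sets. Macrophage markers stood in a like contrast to PCT. Of 8, 7 were called higher in PICT and 7 in OMCT than in PCT, and their summed intensity was 3096 in PICT, 3903 in OMCT and 392 in PCT, with none at or under the negative control. Macrophage genes did not separate PICT upward from OMCT (0 of 8 higher, 1 lower). Of 6 T cell markers 3 were higher in PICT and 1 was higher in OMCT than in PCT, with summed intensities of 424 in PICT, 622 in OMCT and 126 in PCT. Cd4 alone made up 417 of the OMCT sum and was the 1 marker called in OMCT minus PCT (3.10), so the OMCT sum largely follows Cd4. In PICT minus OMCT, 1 T cell marker was called higher (Cd8a, 1.46) and 1 lower (Cd4, -1.58). Cd3d, Cd3g and Cd8a were highest in PICT, and Cd3e, Cd4 and Cd2 in OMCT. The part of these cells in the Plxnc1 difference was not tested.

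The promoter of Plxnc1 is shown because it was the only guidance gene called highest in PICT, and that of Unc5b because both of its calls, lowest in PICT, were kept in at least 6 of the 7 other processing settings. The sequences, from RefSeq (GRCr8), run from 250 bases before to 50 after the gene start, and capitals mark matches to GGGCGG, the GC box, on either strand. Plxnc1 is at chr7:31430556-31430855 on the minus strand and Unc5b at chr20:29307221-29307520 on the minus strand.
Plxnc1: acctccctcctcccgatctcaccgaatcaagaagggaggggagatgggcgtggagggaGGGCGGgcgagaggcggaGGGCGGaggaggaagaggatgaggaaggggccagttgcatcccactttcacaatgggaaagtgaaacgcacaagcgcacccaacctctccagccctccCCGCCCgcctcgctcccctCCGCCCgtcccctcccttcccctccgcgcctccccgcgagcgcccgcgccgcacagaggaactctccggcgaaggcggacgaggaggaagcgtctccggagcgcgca
Unc5b: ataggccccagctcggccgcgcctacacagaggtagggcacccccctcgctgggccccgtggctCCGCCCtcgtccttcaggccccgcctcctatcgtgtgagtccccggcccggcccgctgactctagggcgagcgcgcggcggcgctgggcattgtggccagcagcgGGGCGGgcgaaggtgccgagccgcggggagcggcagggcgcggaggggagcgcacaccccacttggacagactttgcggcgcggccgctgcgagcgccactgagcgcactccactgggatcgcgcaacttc
The Plxnc1 window holds 4 GC box matches and the Unc5b window 2. At least 1 match is found in 33.1% of all 33469 promoters of this length. Neither window holds TATAAA (14.2% of all promoters), TGANTCA, the AP-1 element (7.33%), ACGTG, the core bound by hypoxia-inducible factors (19.3%), or CCAAT (37.5%), each searched on both strands. GC content was 69% for Plxnc1 and 74.3% for Unc5b, with a median of 63% over the 43 guidance genes found in the promoter table and 51.7% over all promoters.

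Plxnb1 and Plxna4 differed in opposite directions between OMCT and PCT. Plxnb1, the receptor of Sema4d, had 378 in PICT, 154 in OMCT and 400 in PCT. After scaling, PICT and PCT lay together at -0.08 (0.62 as deposited). OMCT was low, with 1.25 for PICT minus OMCT and -1.33 for OMCT minus PCT. All 3 Plxnb1 probe sets agreed in direction with both calls. Plxna4, which transmits Sema3a signals together with neuropilin 1, had 27.0 in PICT, 64.4 in OMCT and 13.3 in PCT. OMCT was high, as it was for Sema3a, with -1.03 for PICT minus OMCT and 1.73 for OMCT minus PCT. Both Plxna4 probe sets had these directions. Plxna1, an A-type plexin, had 841 in PICT, 733 in OMCT and 876 in PCT and was not called in any comparison. The remaining plexins, Plxna2, Plxna3, Plxnb2 and Plxnd1, were not called either, with PICT minus PCT differences of -0.55, -0.08, -0.51 and -0.37.

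**Figure D3:**
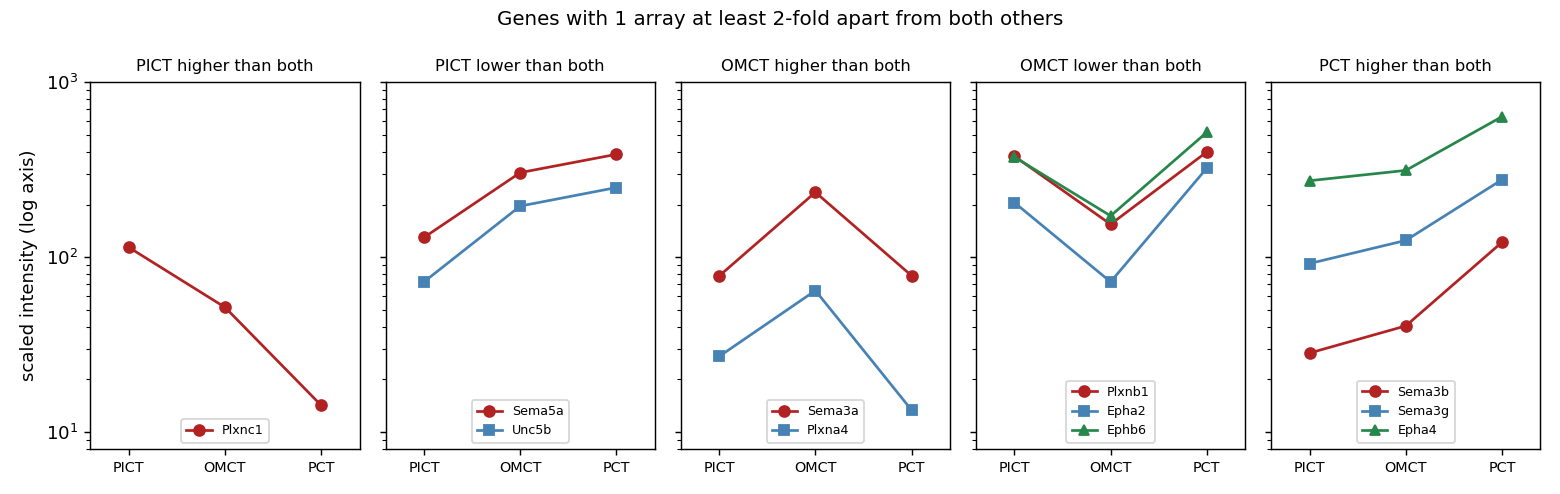
Scaled intensity (log axis) on the PICT, OMCT and PCT arrays of the 11 genes with 1 array called at least 2-fold apart from both others, grouped by which array stood apart. Lines join the values of 1 gene. How many of all genes stood apart in this way is not given here. Plxnc1 alone is highest in PICT, and Plxnb1, Epha2 and Ephb6 dip in OMCT.

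The receptors Epha2, Ephb6 and Ephb3 were low in OMCT. Epha2, a receptor of ephrin-A1 found at keratinocyte contacts, had 205 in PICT, 72.2 in OMCT and 323 in PCT. OMCT stood apart from both others, by 1.40 for PICT minus OMCT and -2.04 for OMCT minus PCT. Ephb6, an Eph receptor whose kinase domain is inactive, had 374 in PICT, 172 in OMCT and 518 in PCT, with 1.08 and -1.54. Ephb3, a receptor of B-type ephrins known for sorting cells in the gut epithelium, had 293 in PICT, 156 in OMCT and 414 in PCT. Its OMCT minus PCT difference of -1.36 was called, and the PICT minus OMCT difference of 0.87 was not. Each of these receptors has 1 probe set.

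Differentiated epithelium was low on the same array as Epha2, Ephb6, Ephb3, Plxnb1 and Sema4b. All 11 markers measured were called higher in PICT than in OMCT and all 11 lower in OMCT than in PCT, with 0 called between PICT and PCT. Their summed scaled intensity was 23653 in PICT, 3855 in OMCT and 31834 in PCT, and all exceeded the negative control on every array. Basal epithelial markers had a different pattern, with 1 of 7 called lower and 0 called higher in PICT against OMCT. Against PCT, 3 of the 7 were lower in PICT and 3 in OMCT, with 0 higher in either and median differences of -0.98 and -0.92. The part of the epithelium in these receptor differences was not tested.

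The promoters of Epha2 and Ephb6 are shown because these genes shared their order over the arrays and both kept their calls in at least 6 of the 7 other settings. They lie at chr5:158888379-158888678 on the plus strand and chr4:71458382-71458681 on the plus strand in GRCr8, with the same window and capitals as before.
Epha2: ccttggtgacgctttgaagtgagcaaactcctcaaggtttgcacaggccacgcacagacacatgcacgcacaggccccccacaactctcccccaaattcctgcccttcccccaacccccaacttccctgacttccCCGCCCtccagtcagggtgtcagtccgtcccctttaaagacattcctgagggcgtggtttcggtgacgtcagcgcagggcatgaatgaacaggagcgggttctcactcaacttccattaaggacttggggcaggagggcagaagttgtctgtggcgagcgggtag
Ephb6: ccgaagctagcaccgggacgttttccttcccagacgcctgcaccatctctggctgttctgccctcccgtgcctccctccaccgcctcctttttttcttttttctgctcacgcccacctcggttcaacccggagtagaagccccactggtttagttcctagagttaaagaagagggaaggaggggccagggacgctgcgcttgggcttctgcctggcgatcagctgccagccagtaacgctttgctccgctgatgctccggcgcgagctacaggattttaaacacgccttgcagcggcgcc
Epha2 has 1 GC box match and Ephb6 has 0, and neither window holds the other motifs searched. Their GC contents were 58.3% and 59.7%. The promoter of Sema3a, the other gene to meet the rule, is not printed here.

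Epha4 and Epha3 set PICT and PCT apart in opposite directions. Epha4, which binds ephrins of both classes, had 274 in PICT, 314 in OMCT and 636 in PCT. Both surgical sites were lower than PCT, by -1.19 for PICT and by -1.001, just at the threshold, for OMCT. The PICT call was kept in 5 of the 7 other processing settings and the OMCT call in only 2. All 4 Epha4 probe sets were lower in PICT than in PCT (-0.29 to -1.38), and 3 of 4 were lower in OMCT than in PCT. Epha3, a receptor of ephrin-A5 found on mesenchymal cells, had 218 in PICT, 112 in OMCT and 81.8 in PCT. PICT was the high array, called against PCT at 1.32 and not against OMCT at 0.91. All 3 Epha3 probe sets were higher in PICT than in PCT, by 0.25 to 1.32. The remaining 7 Eph receptors were not called. Epha7 differed by -0.95 and Ephb4, a receptor of venous endothelium, by 0.15 for PICT minus PCT.

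Of the 5 ephrins, the ligands of these receptors, 1 was called. Efna1, the ligand of Epha2, had 100.6 in PICT, 123 in OMCT and 212 in PCT and was called lower in PICT than in PCT, at -1.01. Its second probe set gave -0.96, and the call was kept in only 2 of the 7 other processing settings. Efnb1, a ligand of B-type Eph receptors, had 667 in PICT, 509 in OMCT and 481 in PCT and was not called. Its probe sets disagreed, since the second differed by -1.14 between PICT and PCT and the brighter by 0.46.

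Schwann cell markers were lower on the arrays where Sema3b, Sema3g and Epha4 were lower. So were basal epithelial markers, with 3 of 7 called lower in PICT and 3 in OMCT than in PCT. Of 6 Schwann cell markers measured, 4 were called lower in PICT and 3 lower in OMCT than in PCT. Their summed intensity was 487 in PICT, 564 in OMCT and 1463 in PCT. Sox10, a defining transcription factor of Schwann cells, did not exceed the negative control in PICT. Among 8 neuron markers, 4 did not exceed the negative control in PICT, while all did in OMCT and PCT. That control differed between arrays, at 7.12 in PICT, 3.01 in OMCT and 8.01 in PCT. The summed intensity of the neuron markers was 234 in PICT, 344 in OMCT and 295 in PCT. Of them, 0 were called higher and 1 lower in PICT minus PCT, and 1 each way in both other comparisons. The part of Schwann cells and neurons in these differences was not tested.

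Slits and Robos had 1 called gene. Robo1, a Slit receptor of axons and endothelium, had 85.1 in PICT, 201 in OMCT and 125 in PCT, and was called lower in PICT than in OMCT at -1.16. Slit2, its best-known ligand, had 88.6 in PICT, 135 in OMCT and 73.0 in PCT and was not called, with 0.82 for OMCT minus PCT. On the probe sets used, all 3 Robos were lower in PICT than in OMCT and higher in OMCT than in PCT. Robo3 was too dim for a call, and in PICT and PCT it did not exceed the negative control. The second Robo2 probe set differed by 0.20 between OMCT and PCT, and the third by -0.17, the opposite direction. As deposited the Robo medians kept both directions, at -1.20 and 1.35.

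Among netrins and their receptors, the ligand and 1 receptor were low in PICT. Ntn1, netrin 1, had 23.4 in PICT, 70.7 in OMCT and 51.9 in PCT. PICT was the lowest array on the 2 brighter of the 3 Ntn1 probe sets, with the brightest called against OMCT at -1.31 and the next at -0.64. The dimmest, at 4.07, did not exceed the negative control in PICT, so its difference has no exact size. Against PCT the brightest probe set differed by -0.92. Unc5b, the netrin receptor of vascular endothelium, had 72.2 in PICT, 196 in OMCT and 250.1 in PCT. It was called lower in PICT against both others, at -1.68 against PCT and -1.34 against OMCT. The second Unc5b probe set gave -1.76 and -1.11, so both probe sets passed 2-fold in both comparisons. Unc50 had 166 in PICT, 256 in OMCT and 240.2 in PCT and was not called.

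Blood endothelial markers were low on the array where Unc5b and Nrp1 were low. Of 8 measured, 6 were called lower in PICT than in PCT, 5 lower in PICT than in OMCT and 0 in either direction between OMCT and PCT. Their summed scaled intensity was 1581 in PICT, 3328 in OMCT and 3390 in PCT, with none at or under the negative control. The part of vessel content in these differences was not tested.

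**Figure D4:**
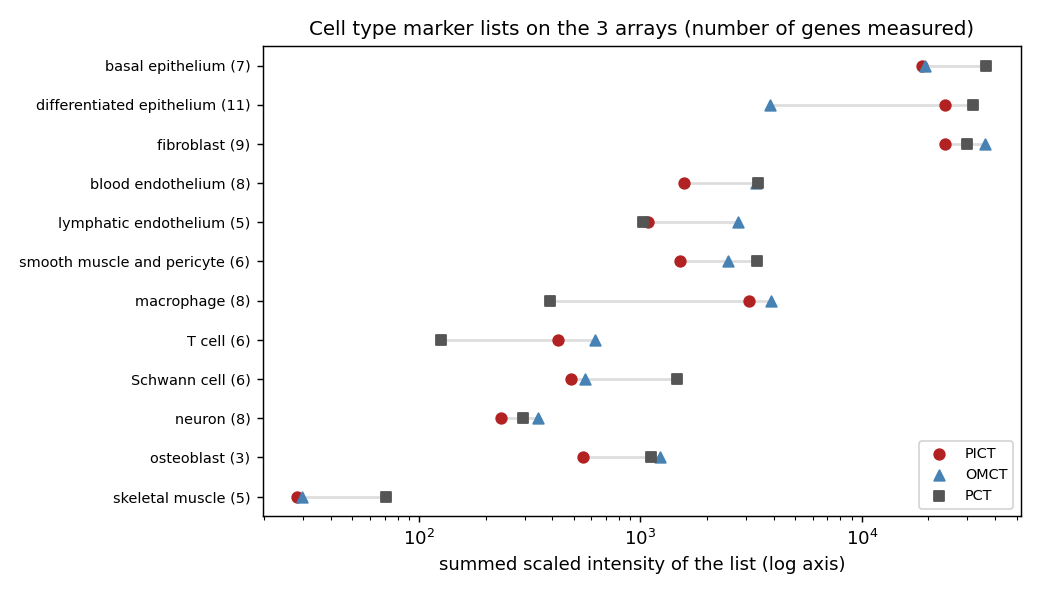
Summed scaled intensity (log axis) of each cell type marker list on the PICT (circles), OMCT (triangles) and PCT (squares) arrays, with the number of genes measured in brackets. Differentiated epithelium is low in OMCT (3855), macrophage markers are low in PCT (392) and blood endothelium is low in PICT (1581).

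The 34 genes never called had PICT minus PCT differences from -1.59 to 1.11, PICT minus OMCT differences from -1.52 to 1.10 and OMCT minus PCT differences from -0.92 to 1.53. Of these, 7 genes were 2-fold apart in at least 1 comparison but below the array median on both arrays compared: Sema3d, Sema4g, Efnb3, Slit1, Ephb1, Robo3 and Unc5a, picked out after their values were seen. Ephb1 lay just outside the brightness threshold, with a scaled intensity of 10.6 in PICT against 46.8 in OMCT (-1.52). Efnb3 had 11.4 in PICT, 19.0 in OMCT and 0.840 in PCT. The PCT value was not above the negative control, which leaves the size of that difference inexact. Just inside the threshold of size lay Epha4 in OMCT minus PCT (-1.001) and Efna1 in PICT minus PCT (-1.01). So did Plxnc1 (1.02) and Plxna4 (-1.03) in PICT minus OMCT. Just outside it lay Nrp2 in PICT minus OMCT (-0.97).

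In the order of protein-coding genes in GRCr8, 5 pairs of guidance genes lay close together. Sema3b and Sema3f had 3 genes between them, and both were lowest in PICT and highest in PCT on the probe sets used. Efna1 and Efna4 had 1 gene between them, and Efna4 had 43.9 in PICT, 30.0 in OMCT and 63.2 in PCT. Sema3a and Sema3d were direct neighbours but differed in order, Sema3d being highest in PCT. Robo1 and Robo2 had 1 gene between them and were both highest in OMCT on the probe sets used. Sema3c and Sema3e, with 4 between, were also both highest in OMCT. These are descriptions of single arrays.

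Probe sets of the same gene bear on 22 of the 35 called differences. In 18 of these 22, every probe set of the gene had the direction of the call, but in 3 of the 18 (Plxnc1 against PCT in PICT and in OMCT, and Ntn1 in PICT minus OMCT) a dimmer probe set did not exceed the negative control on an array compared. The exceptions were Sema3g and Sema5a in PICT minus PCT, Plxnc1 in PICT minus OMCT and Epha4 in OMCT minus PCT. The other 13 calls rest on genes with 1 probe set. By comparison, the share with every probe set in 1 direction was 77.8% for PICT minus PCT, 85.7% for PICT minus OMCT and 83.3% for OMCT minus PCT. Among all called genes with several probe sets it was 76.3%, 79.8% and 85.2%, so this agreement was near that of all genes.

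**Figure D5:**
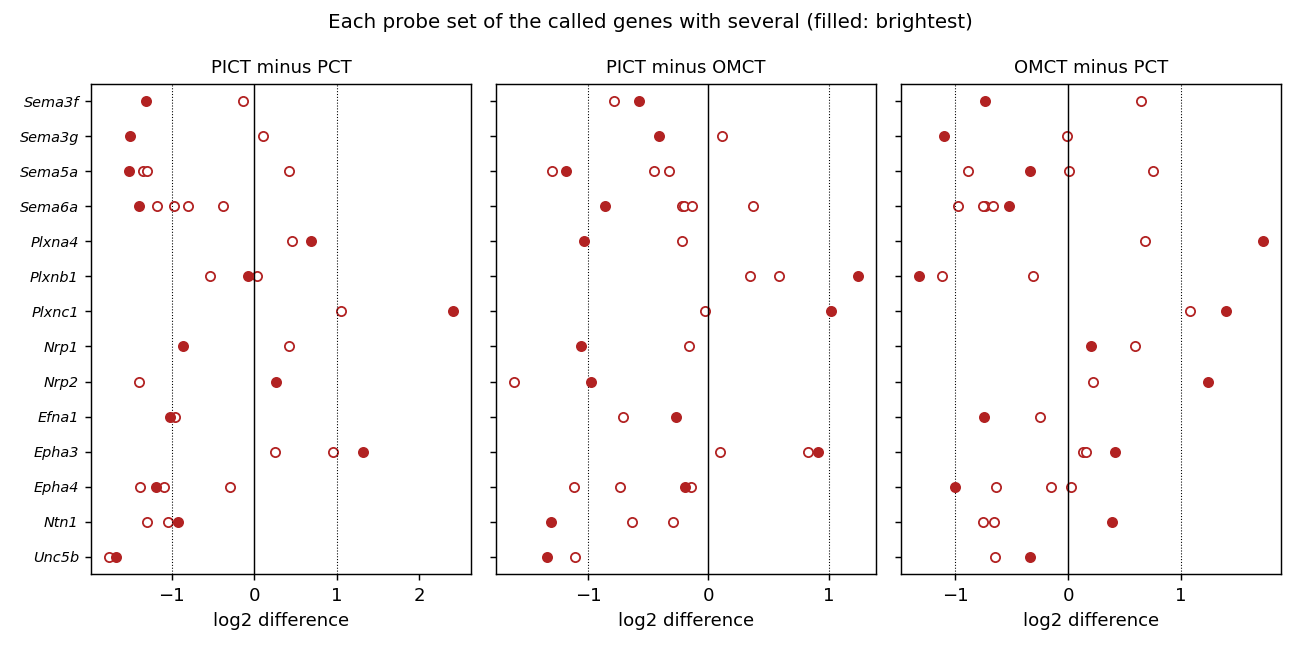
Log2 difference of every probe set of the 14 called genes with several, the brightest filled and the others open, for PICT minus PCT, PICT minus OMCT and OMCT minus PCT. Both Unc5b probe sets lie beyond -1 in PICT minus PCT and in PICT minus OMCT, whereas the Nrp1 and Nrp2 probe sets fall on both sides of 0 in PICT minus PCT.

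Other genes of these pathways were taken from a list of 70, of which 63 were measured. In PICT minus PCT 1 was higher (1.59%) and 4 were lower (6.35%), against 3.64% and 3.94% of all genes. In PICT minus OMCT 2 were higher (3.17%) and 3 lower (4.76%), against 4.04% and 4.38%, which is near the background. In OMCT minus PCT 5 were higher and 5 lower (7.94% each), against 5.3% and 5.41%. Draxin, a secreted antagonist of netrin signalling through Dcc, had 17.7 in PICT, 173 in OMCT and 25.5 in PCT. OMCT stood apart by -2.78 for PICT minus OMCT and 2.41 for OMCT minus PCT. Rgmb, a neogenin ligand and BMP co-receptor, had 190.2 in PICT, 844 in OMCT and 224 in PCT, with -2.10 and 1.87. With the mean over its probe sets, Rgmb had only -1.24 for PICT minus OMCT and -0.41 for PICT minus PCT. That leaves its OMCT minus PCT difference under 2-fold. Both ligands thus were high on the array where Sema3a, Plxna4 and Robo1 were highest. Gpc1, a heparan sulphate proteoglycan that binds Slits, was low in PICT, with 262 in PICT, 655 in OMCT and 718 in PCT, at -1.43 against PCT and -1.30 against OMCT. L1cam, an axonal adhesion molecule that partners neuropilin 1, was lower in PICT than in PCT (-1.02) and lower in OMCT than in PCT (-1.43), and its relative Chl1 was lower in OMCT than in PCT (-1.08). Vegfa, the endothelial growth factor that shares neuropilin 1 with Sema3a, had 215 in PICT, 103 in OMCT and 315 in PCT, at 1.005 for PICT minus OMCT and -1.54 for OMCT minus PCT.

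Inside the cell, 2 actin-binding proteins of these pathways were called lower against PCT. Ablim3 had 9.08 in PICT, 36.6 in OMCT and 60.0 in PCT, a PICT minus PCT difference of -1.95. Ablim1 had 538 in PICT, 253 in OMCT and 944 in PCT and was low in OMCT, at 1.07 for PICT minus OMCT and -1.87 for OMCT minus PCT. The mean over probe sets gave -1.23 for Ablim3 in PICT minus PCT and 0.70 for Ablim1 in PICT minus OMCT. Ngef, the exchange factor ephexin that acts under Eph receptors, was lower in PICT than in PCT (-1.06). Fes, a tyrosine kinase known from myeloid cells, was higher than in PCT in PICT (1.30) and in OMCT (1.05). Dpysl3 and Mical2, which relay semaphorin signals to the cytoskeleton, were higher in OMCT than in PCT, at 1.66 and 1.43. With the mean over probe sets, PICT minus PCT and PICT minus OMCT were 0.45 and -0.45 for Dpysl3. For Mical2 they were 0.24 and -0.76. That leaves OMCT minus PCT under 2-fold for Dpysl3 and at about 2-fold for Mical2. Limk2, a kinase that inactivates cofilin, was lower in OMCT than in PCT at -1.15.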

How the data were processed

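Microarray values of 31099 probe sets on 3 arrays were used, 1 each for PICT, OMCT and PCT. Per the labels' protocols, RNA from laser-microdissected tissue was isolated with RNeasy and labelled with biotin by a kit that reads near the poly(A) end. Deposited intensities were taken as linear, as their range from 0.0124 to 13104 shows. The sources used here do not say how the authors summarised or scaled them.

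Gene symbols were taken from GEO's annotation of the array. Of 20826 probe sets with 1 symbol, the one with the highest mean log2 value stood for each of 14217 genes. All 57 guidance genes matched RefSeq (GRCr8) by gene ID, with 0 symbols changed, and none was named by the 436 probe sets with several symbols. Intensities were scaled to a common median (48.1) before a pseudocount (8.78, the 20th percentile) was added and log2 taken, since adding it before scaling shifts genes near 0. No test, p-value or replicate SD is possible with 1 array per tissue. Calls followed a rule of size (2-fold, brighter array at or above its median). The genes named were the called guidance genes, up to 12 per direction and comparison, the member of each family with the highest mean, and up to 5 called genes per direction of the other pathway genes. Genes and lists were chosen with earlier results of these data known. Python 3.11.15, pandas 2.3.3, numpy 2.4.6 and matplotlib 3.10.9 were used. Alternatives changed the scaling, pseudocount, filter and choice of probe set.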

Additional observations from a re-analysis of the deposited data

How the results depend on the processing

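Of the 35 called differences, 7 were kept in all 7 other settings (Sema3b and Unc5b in PICT minus PCT, Sema3a, Epha2 and Unc5b in PICT minus OMCT, Sema3a and Epha2 in OMCT minus PCT), 31 in at least 5, and none changed sign. Counts of called guidance genes were within 1.5 times those reported in 26 of 42 cases. As deposited, without scaling, PICT minus PCT had 5 higher and 2 lower (against 14.1% and 0.90% of all genes) and OMCT minus PCT 15 and 1 (against 17.6% and 2.10%). With a pseudocount at the median intensity, PICT minus OMCT had 2 higher and 2 lower (against 2.24% and 2.39% of all genes) and OMCT minus PCT 2 and 4 (against 3.27% and 3.45%). Without the filter on low values, 4 were higher in PICT minus PCT (against 5.09% of all genes) and 8 in OMCT minus PCT (against 7.15%). With the mean over all probe sets of a gene, which lowers the level that the filter sees, PICT minus PCT had 0 higher and 2 lower (against 3.07% and 3.22% of all genes), PICT minus OMCT 2 and 5 (against 3.50% and 3.77%), and OMCT minus PCT 3 and 5 (against 4.66% and 4.96%). As deposited, the median difference moved to 0.18 in PICT minus PCT and to 0.48 in OMCT minus PCT, and over all genes to 0.47 and 0.54. The cause of the lower deposited intensities in PCT was not tested. No paired analysis was possible because each tissue has 1 array, and for the same reason no array could be left out.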
